A study of Homo sapiens with 12 samples.

Results

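The plasminogen activator system was described here through 6 genes, found as the rows of the count table whose identifiers carry the symbols of 2 activators (PLAU and PLAT), 1 receptor (PLAUR) and 3 serpins (SERPINE2, SERPINB2 and SERPINB8), out of 60676 gene rows in all. The rows were found by name, and the set of genes was chosen with earlier results of these data known. RNA came from A549, an established human lung adenocarcinoma line, transduced with a lentiviral vector whose EF1a promoter drives the insert and selected with puromycin. The 4 groups of 3 libraries were cells with LETS1, a long non-coding RNA, given TGF-β at 5 ng/mL for 4 h (LETS1 TGF-β), the same cells given ligand buffer (LETS1 buffer), cells with the empty vector given TGF-β (Co.vec TGF-β) and empty-vector cells given buffer (Co.vec buffer). All 4 groups therefore shared the vector backbone and the puromycin selection.

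Plasminogen is cut to the broad protease plasmin by 2 secreted serine proteases, the urokinase encoded by PLAU and the tissue activator encoded by PLAT. PLAUR encodes a lipid-anchored receptor that holds urokinase at the cell surface, where it acts on plasminogen bound nearby and on the surrounding matrix. Most serpins are suicide inhibitors: the protease cleaves their reactive loop and stays bound to it. The complexes formed at the surface are cleared by receptors of the LDL receptor family. TGF-β is long known as a regulator of these genes in epithelial and cancer cells.

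The sequence just upstream of the start is shown for members that differ in the letters of 2 motifs tied to TGF-β signalling in the literature, TGANTCA (the AP-1 motif, a palindrome apart from its middle base) and CAGAC (a SMAD box), each searched on both strands. The windows are the 250 bases before the RefSeq transcription start (GRCh38.p14), written 5′ to 3′ on the strand of the gene, with the motif matches in capitals.
PLAUR (chr19:43670170-43670419, minus strand): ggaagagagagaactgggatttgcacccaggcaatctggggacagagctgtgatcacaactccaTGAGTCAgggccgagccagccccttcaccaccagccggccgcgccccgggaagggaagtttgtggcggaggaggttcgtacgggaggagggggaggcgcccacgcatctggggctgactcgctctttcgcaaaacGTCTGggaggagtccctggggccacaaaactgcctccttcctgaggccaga
SERPINB8 (chr18:63969831-63970080, plus strand): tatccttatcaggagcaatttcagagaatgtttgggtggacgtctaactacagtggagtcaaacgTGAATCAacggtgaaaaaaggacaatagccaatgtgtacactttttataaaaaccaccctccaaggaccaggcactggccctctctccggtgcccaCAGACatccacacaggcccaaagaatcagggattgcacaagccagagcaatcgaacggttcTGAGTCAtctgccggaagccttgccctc
SERPINB2 (chr18:63887455-63887704, plus strand): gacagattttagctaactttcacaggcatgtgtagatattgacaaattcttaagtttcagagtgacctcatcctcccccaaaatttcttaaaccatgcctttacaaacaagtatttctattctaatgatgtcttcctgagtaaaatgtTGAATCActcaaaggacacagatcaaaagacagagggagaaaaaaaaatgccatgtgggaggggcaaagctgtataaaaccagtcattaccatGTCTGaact
PLAU (chr10:73910882-73911131, plus strand, second of 2 starts): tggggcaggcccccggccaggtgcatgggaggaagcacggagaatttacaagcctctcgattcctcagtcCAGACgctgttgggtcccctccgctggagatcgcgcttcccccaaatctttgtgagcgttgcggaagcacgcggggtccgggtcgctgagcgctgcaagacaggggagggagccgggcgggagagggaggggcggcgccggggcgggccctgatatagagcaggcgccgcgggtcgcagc
SERPINB8 held 2 matches of TGANTCA, 185 to 179 and 28 to 22 bases before its start, and 1 of CAGAC. PLAUR and SERPINB2 held 1 match of each motif, with TGANTCA 186 to 180 bases before the start of PLAUR and 102 to 96 bases before that of SERPINB2. PLAU had 1 CAGAC in this window and no match of either motif in the window of its other start, and both windows of SERPINE2 had no match. Of 35116 windows of the same length over 27305 genes, 6.57% held TGANTCA and 38.003% held CAGAC. The 2 motifs do not overlap in these windows, and a match describes letters only.

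By the GENCODE 29 annotation of GRCh38, PLAU (ENSG00000122861) lies at chr10:73909177-73917497 on the plus strand, PLAT (ENSG00000104368) at chr8:42175233-42207724 on the minus strand, PLAUR (ENSG00000011422) at chr19:43646095-43670547 on the minus strand and SERPINE2 (ENSG00000135919) at chr2:223975112-224039319 on the minus strand. SERPINB2 (ENSG00000197632), at chr18:63871692-63903890, and SERPINB8 (ENSG00000166401), at chr18:63969925-64019779, are both on the plus strand of the clade B serpin cluster. All 6 are protein-coding. PLAU overlaps C10orf55 on the opposite strand over 7529 bases, and C10orf55 itself had 7 to 13 fragments a library. SERPINB8 overlaps HMSD on the same strand (9 to 20 fragments) and AC009802.1 on the opposite strand (4 to 17 fragments), PLAUR overlaps RN7SL368P over 277 bases, and SERPINB2 overlaps SERPINB10, which had 0 fragments in every library. The strand setting of the counting is not given in the sources used here, so fragments of overlapping genes could have been left out as ambiguous or given to either gene.

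Of the 6 genes, 5 passed the filter on low counts, with at least 43 fragments in every library, and SERPINB2 did not. Gene fragments numbered 19705135 to 20351043 per library, and 16192 genes passed the filter. Replicates of a group differed by 2.16 to 5.24 times the variance of counting alone (chi-square per degree of freedom, 12 pairs). The labels do not say whether replicates came from separate transductions, so p-values measure the spread between these samples. LETS1 has no row under that symbol, and its level was not analysed here. The 10 A549 and epithelial markers all passed the filter, whereas the 6 endothelial markers, genes of the cell type known for tissue activator, summed to 0.301 to 0.684 CPM (counts scaled to a common library size) and 0 of 6 passed.

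Per length of transcript, SERPINE2 and PLAU were the most abundant members and PLAT the least abundant of those tested. In LETS1 TGF-β cells SERPINE2 averaged 40.2 ± 0.61 FPKM (CPM per kilobase of exon; SD, n = 3 here and below), PLAU 38.3 ± 0.0752, PLAUR 25.4 ± 1.73, SERPINB8 4.62 ± 0.106 and PLAT 0.614 ± 0.0322 FPKM. In Co.vec buffer cells the averages were 23.7 ± 0.254 FPKM for SERPINE2, 21.6 ± 0.574 for PLAU, 12.01 ± 1.00 for PLAUR, 2.32 ± 0.0636 for SERPINB8 and 0.443 ± 0.107 for PLAT. The order was the same in those groups. SERPINE2 and PLAU did not differ beyond their spread in LETS1 buffer cells (22.5 to 25.3 and 21.8 to 25.2 FPKM) or in Co.vec TGF-β cells (38.1 to 42.1 and 35.8 to 44.1 FPKM), while every library of the other 2 groups had more SERPINE2 than any library of the same group had PLAU. The remaining neighbours in the order did not overlap in any group. These levels depend on the length used, the union of all annotated exons, 8891 bases for SERPINE2 and 2950 for PLAU. The length of the transcripts made was not measured. Without length, SERPINE2 averaged 210.0 CPM and PLAU 69.3 CPM in LETS1 buffer cells.

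**Figure D1:**
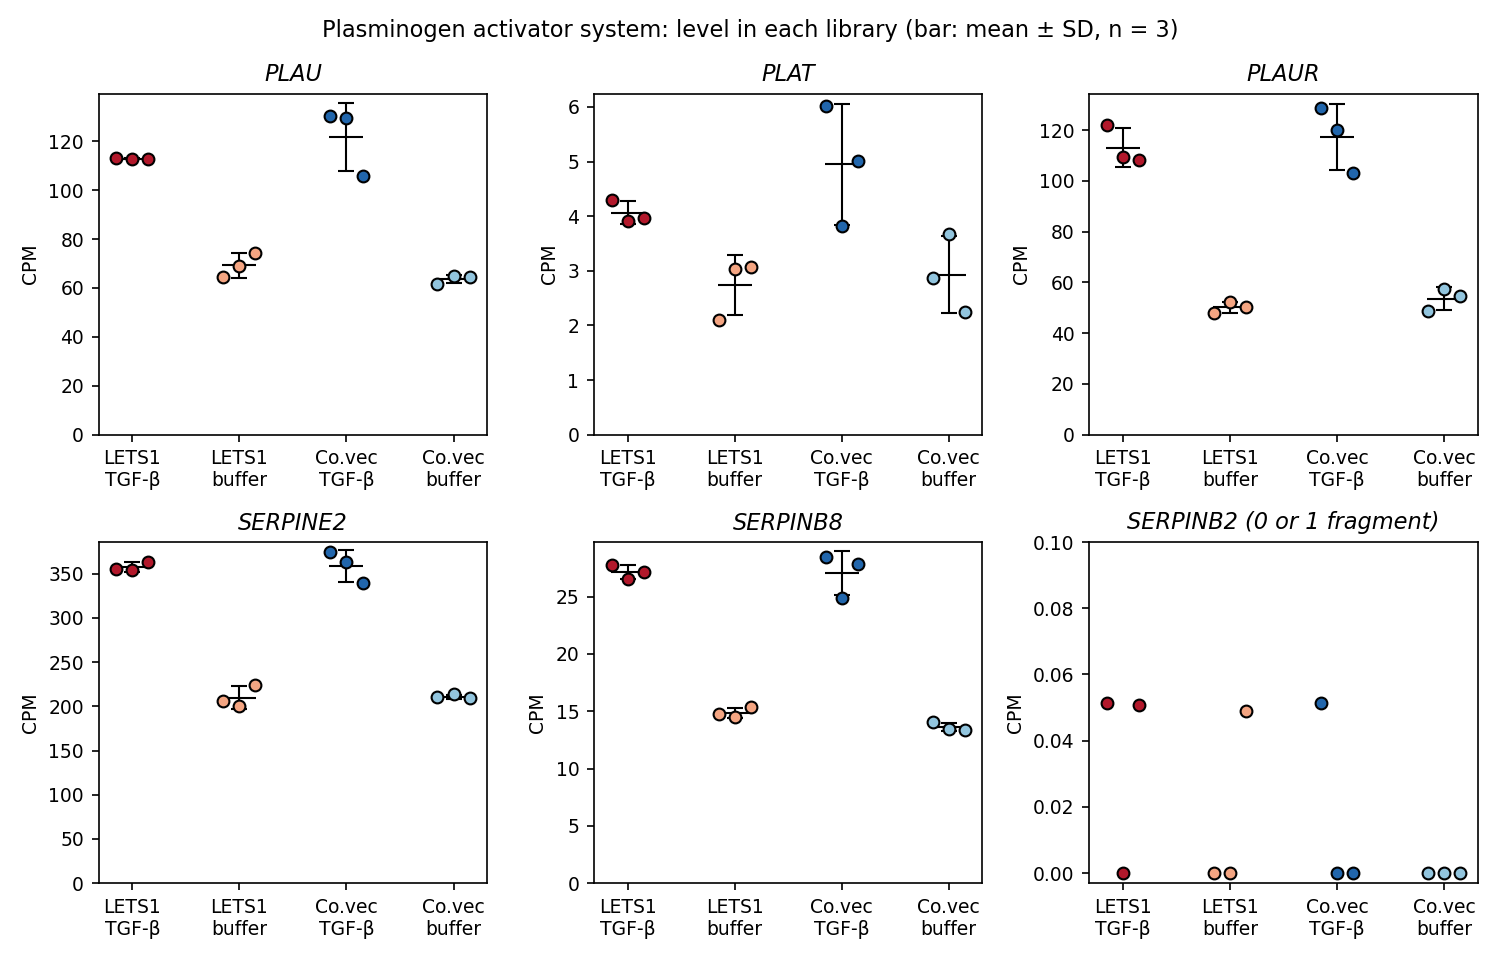
Level of each gene in CPM (linear axis, its own scale in each panel) in the 12 libraries; points are libraries in replicate order, horizontal bars are means and error bars SD (n = 3). In 5 panels every TGF-β library of a vector stands above every buffer library of that vector, and SERPINB2, drawn without means, is at 0 or 1 fragment. The share of all genes that separate in this way was not counted, so nothing particular to the members is read from it.

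TGF-β against buffer in LETS1 cells asks how the system responds to the ligand where the vector carries LETS1. The same contrast in Co.vec cells gives the response with the empty vector, and any LETS1 made by the cells themselves was not measured here. All 5 members tested rose with TGF-β in both cell populations, by 1.48 to 2.26 times in LETS1 cells and by 1.69 to 2.19 times in Co.vec cells. The activators, the receptor and the 2 measured serpins thus moved in 1 direction. Of all 16192 genes, 19.7% were called higher in LETS1 cells and 21.1% in Co.vec cells (edgeR quasi-likelihood test, Benjamini-Hochberg adjusted p under 0.05), 19.1% and 18.6% were called lower, and 38.7% and 39.7% were called in either direction. The median log2 fold change was 0.77 over the members in LETS1 cells and 0.94 in Co.vec cells, beside -0.0155 and -0.0175 over all genes tested. In bulk RNA, fewer cells of a kind and less RNA per cell cannot be told apart.

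PLAU encodes urokinase, the activator that works on cell surfaces. It was at 113.2, 112.7 and 112.9 CPM in LETS1 TGF-β libraries against 64.3, 69.1 and 74.4 CPM in LETS1 buffer libraries, and at 130.1, 129.6 and 105.7 CPM in Co.vec TGF-β libraries against 61.6, 64.7 and 64.4 CPM in Co.vec buffer libraries. The ligand groups stood clear of the buffer groups, and the third Co.vec TGF-β library was lower than the other two. The log2 fold change was 0.71 (SE 0.0612, edgeR adjusted p = 3.01e-11) in LETS1 cells and 0.94 (SE 0.0615, edgeR adjusted p = 3.35e-14) in Co.vec cells.

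PLAT, the tissue activator best known from blood vessels and clot lysis, was the scarce one. Its levels were 4.31, 3.91 and 3.96 CPM in LETS1 TGF-β libraries against 2.099, 3.04 and 3.08 CPM in LETS1 buffer libraries. In Co.vec cells they were 6.01, 3.81 and 5.02 CPM with TGF-β against 2.87, 3.67 and 2.25 CPM in buffer. No ligand library fell within the range of its buffer group, but in Co.vec cells the closest libraries were 3.81 CPM with TGF-β and 3.67 CPM in buffer. The log2 fold change was 0.57 (SE 0.179, edgeR adjusted p = 0.0105) in LETS1 cells and 0.75 (SE 0.171, adjusted p = 0.000457) in Co.vec cells. Without LETS1 buffer replicate 1 the value in LETS1 cells was 0.41 and did not pass (edgeR adjusted p = 0.0964).

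PLAUR, the urokinase receptor, had the largest log2 fold change of the members in both populations. It stood at 122.0, 109.2 and 108.1 CPM in LETS1 TGF-β libraries against 48.1, 52.2 and 50.2 CPM in LETS1 buffer libraries, and at 128.6, 120.2 and 103.0 CPM in Co.vec TGF-β libraries against 48.5, 57.2 and 54.8 CPM in Co.vec buffer libraries. Even the lowest ligand library was far above the highest buffer library. The log2 fold change was 1.17 (SE 0.0707, edgeR adjusted p = 3.64e-13) in LETS1 cells and 1.13 (SE 0.0702, edgeR adjusted p = 6.37e-13) in Co.vec cells, which placed PLAUR at percentile 97.4 and percentile 96.8 of the log2 fold changes of all genes tested.

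SERPINE2 encodes protease nexin-1, a secreted serpin that inhibits thrombin, urokinase, the tissue activator and plasmin. It was at 354.8, 353.7 and 363.6 CPM in LETS1 TGF-β libraries against 205.5, 199.8 and 224.5 CPM in LETS1 buffer libraries, and at 374.3, 363.2 and 339.0 CPM in Co.vec TGF-β libraries against 210.6, 213.5 and 209.0 CPM in Co.vec buffer libraries. The ligand and buffer groups were far apart in both populations. The log2 fold change was 0.77 in LETS1 cells (SE 0.0452, edgeR adjusted p = 1.98e-17) and 0.77 in Co.vec cells (SE 0.0452, edgeR adjusted p = 2.06e-17).

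SERPINB8 encodes an intracellular clade B serpin known as an inhibitor of furin-type proteases, and its place among the inhibitors of the activators comes from the name list. Its levels were 27.8, 26.5 and 27.1 CPM in LETS1 TGF-β libraries against 14.7, 14.5 and 15.3 CPM in LETS1 buffer libraries. In Co.vec cells they were 28.5, 24.8 and 27.8 CPM with TGF-β against 14.0, 13.5 and 13.3 CPM in buffer. The groups did not overlap, with a log2 fold change of 0.87 (edgeR adjusted p = 4.52e-13, SE 0.0717) in LETS1 cells and 0.99 (SE 0.073, edgeR adjusted p = 1.68e-14) in Co.vec cells.

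SERPINB2, the second classical inhibitor of urokinase, which macrophages and keratinocytes are known to make in quantity, was near absent. It had 1, 0 and 1 fragments in LETS1 TGF-β libraries, 0, 0 and 1 in LETS1 buffer libraries, 1, 0 and 0 in Co.vec TGF-β libraries and 0, 0 and 0 in Co.vec buffer libraries. These 4 fragments among 12 libraries allow no fold change or test, and 3 fragments, the limit that a count of 0 allows, would be 0.146 to 0.155 CPM in these libraries. The limit covers counting error only. A difference between the groups was not detectable at this depth.

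Markers of other cell types were low or absent apart from the fibroblast list. The 6 fibroblast markers summed to 135.5 to 151.6 CPM in LETS1 TGF-β libraries against 19.8 to 24.4 CPM in LETS1 buffer libraries, and to 122.1 to 130.7 CPM in Co.vec TGF-β libraries against 13.8 to 14.0 CPM in Co.vec buffer libraries. Almost all of this was COL1A1, a collagen gene that TGF-β is known to raise, at means of 141.9 CPM in LETS1 TGF-β, 19.9 in LETS1 buffer, 125.6 in Co.vec TGF-β and 13.3 in Co.vec buffer cells, and 3 of the 6 markers (COL1A2, COL3A1 and DCN) did not pass the filter. Leukocyte markers summed to 3.76 to 4.05 CPM in LETS1 TGF-β libraries against 4.15 to 5.32 CPM in LETS1 buffer libraries, and to 3.51 to 3.92 CPM in Co.vec TGF-β libraries against 4.99 to 5.85 CPM in Co.vec buffer libraries, lower with TGF-β and without overlap in both. Platelet markers, with GP9 at 0, summed to 3.71 to 4.10 CPM in LETS1 TGF-β libraries against 4.25 to 4.96 CPM in LETS1 buffer libraries, and to 3.71 to 4.52 CPM in Co.vec TGF-β libraries against 3.26 to 3.66 CPM in Co.vec buffer libraries. These did not overlap either, and they ran in opposite directions in LETS1 and Co.vec cells. How often sums of other genes separate between ligand and buffer was not counted. Hepatocyte markers summed to 1.86 to 2.05 CPM in LETS1 TGF-β libraries against 1.57 to 2.20 CPM in LETS1 buffer libraries, and to 1.46 to 1.70 CPM in Co.vec TGF-β libraries against 1.63 to 2.18 CPM in Co.vec buffer libraries, with overlap in both. The A549 and epithelial markers summed to 23872.9 to 24349.1 CPM in LETS1 TGF-β libraries against 21843.7 to 22531.7 CPM in LETS1 buffer libraries, without overlap. In Co.vec cells they summed to 26395.8 to 27927.6 CPM with TGF-β against 25109.1 to 26439.8 CPM in buffer, with overlap. The 10 genes of this list were split: 4 were called higher and 2 lower with TGF-β in LETS1 cells, and 4 higher and 3 lower in Co.vec cells. Over all genes, 38.7% and 39.7% were called in these contrasts. The 4 markers called higher were KRT7, KRT8, KRT18 and CLDN4 in both populations. CLDN4 rose most, with a log2 fold change of 2.57 in LETS1 cells and 2.36 in Co.vec cells. CDH1 and AKR1C1 were called lower in both populations, and AKR1B10 in Co.vec cells only. CDH1 averaged 74.4 CPM in LETS1 TGF-β, 97.6 in LETS1 buffer, 71.3 in Co.vec TGF-β and 95.9 in Co.vec buffer cells. The part of these lists in the ligand response was not tested.

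**Figure D2:**
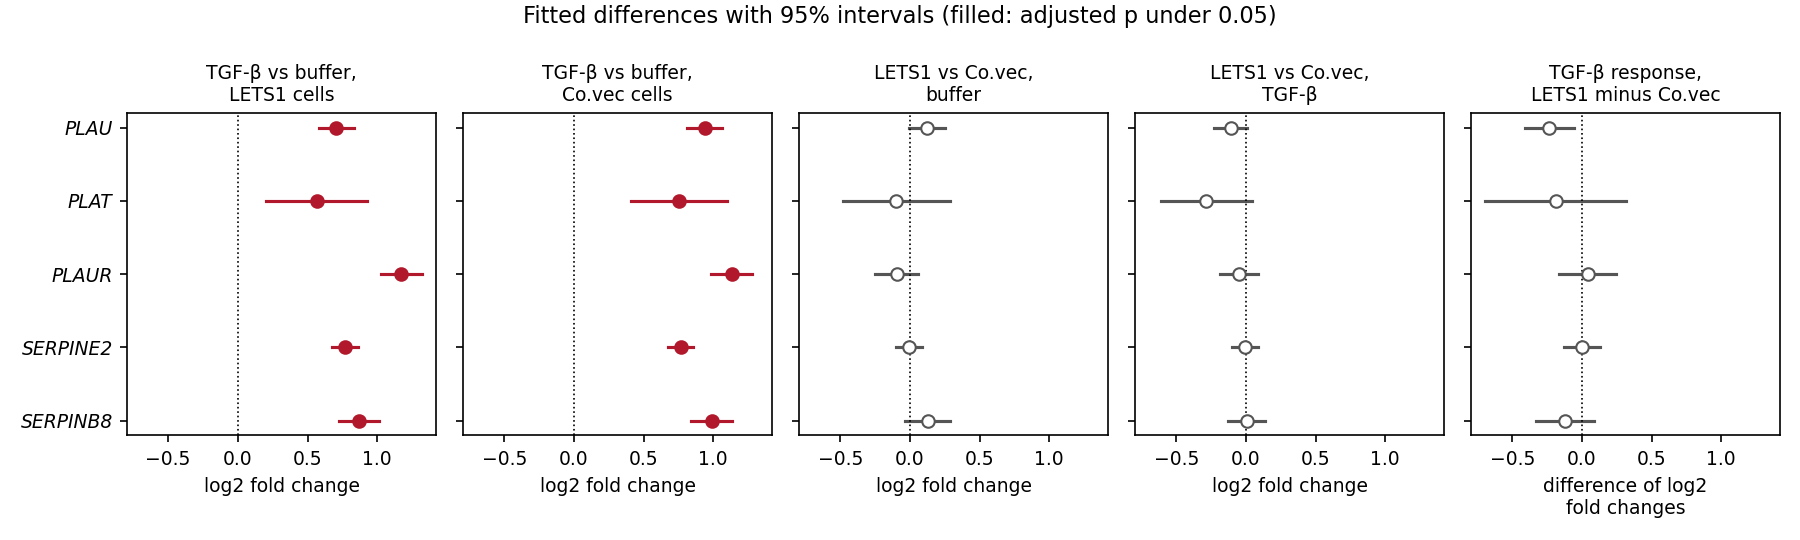
Fitted log2 fold change of each tested gene with its 95% interval in the 4 contrasts, and in the last panel the ligand response in LETS1 cells minus that in Co.vec cells (axis: difference of log2 fold changes); filled points have an adjusted p under 0.05. All 5 points are filled and right of 0 in both TGF-β panels, and no point is filled in the LETS1 panels or the last panel.

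LETS1 against Co.vec in buffer asks whether the vector with LETS1 shifts the system without added ligand. Of the 5 members tested, 0 were called (edgeR; 0 at an unadjusted p under 0.05, and 0 by DESeq2), beside 15.1% of all genes called in either direction, 8.57% higher and 6.56% lower. PLAU was at 64.3, 69.1 and 74.4 CPM in LETS1 buffer libraries against 61.6, 64.7 and 64.4 CPM in Co.vec buffer libraries, which overlap (log2 fold change 0.12, 95% interval -0.01 to 0.25, edgeR adjusted p = 0.214). SERPINB8 was higher in all 3 LETS1 buffer libraries (14.5 to 15.3 CPM) than in any Co.vec buffer library (13.3 to 14.0 CPM), but the fitted log2 fold change of 0.13 had an interval of -0.03 to 0.29 and did not pass (edgeR adjusted p = 0.325). PLAUR had a log2 fold change of -0.09 (-0.25 to 0.06, edgeR adjusted p = 0.468) and PLAT of -0.10 (-0.48 to 0.29, edgeR adjusted p = 0.804). SERPINE2 had -0.01 (-0.10 to 0.09, edgeR adjusted p = 0.947), so that its 95% interval as a fold was 0.933 to 1.06. Sums of 3 marker lists did not overlap between LETS1 and Co.vec cells in buffer. The A549 and epithelial sum was lower with LETS1 and the fibroblast and platelet sums were higher, at the values given above. Of the 10 A549 and epithelial markers, 1 was called higher and 6 lower. The platelet list was split. PF4 averaged 2.49 CPM in LETS1 buffer and 0.946 CPM in Co.vec buffer cells. PPBP (0.538 and 0.746 CPM) and ITGA2B (1.58 and 1.82 CPM) averaged lower with LETS1. How often sums of other genes separate in this way was not counted. The part of these 3 lists in the member values was not tested.

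Under TGF-β the comparison of LETS1 with Co.vec again called 0 of the 5 members (0 at an unadjusted p under 0.05 and 0 by DESeq2), beside 14.1% of all genes, 7.58% higher and 6.5% lower. PLAU was at 112.7 to 113.2 CPM in LETS1 TGF-β libraries, inside the 105.7 to 130.1 CPM of Co.vec TGF-β libraries (log2 fold change -0.11, 95% interval -0.23 to 0.01, edgeR adjusted p = 0.246). That PLAU was not called rested on 1 library. Without Co.vec TGF-β replicate 3 the value was -0.20 and PLAU was called lower with LETS1 (edgeR adjusted p = 0.00479). PLAT, at 3.91 to 4.31 CPM with LETS1 against 3.81 to 6.01 CPM with Co.vec, had the widest interval, -0.61 to 0.04 around -0.29 (edgeR adjusted p = 0.267), which includes a fold of 0.655. PLAUR (-0.05, -0.19 to 0.08), SERPINE2 (-0.01, -0.10 to 0.08) and SERPINB8 (0.01, -0.13 to 0.14) had narrower intervals on the log2 scale and edgeR adjusted p of 0.681, 0.953 and 0.973. Under TGF-β the sums of the A549 and epithelial, fibroblast and hepatocyte lists did not overlap between LETS1 and Co.vec libraries. The A549 and epithelial sum was lower with LETS1 and the other 2 higher, at the values given above. The hepatocyte list was split. ALB averaged 1.76 CPM in LETS1 TGF-β and 1.23 CPM in Co.vec TGF-β cells. TTR (0.152 and 0.255 CPM) and APOA1 (0.0167 and 0.0682 CPM) averaged lower with LETS1. How often sums of other genes separate in this way was not counted. The part of these 3 lists in the member values was not tested.

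The difference between the 2 ligand responses was tested as an interaction, which called 0.679% of all genes, 0.0803% higher and 0.599% lower, and 0 of the 5 members (DESeq2 also called 0, and 1 member had an unadjusted p under 0.05). That member was PLAU, whose response in LETS1 cells minus that in Co.vec cells was a difference of log2 fold changes of -0.23, short of the threshold (95% interval -0.41 to -0.06, edgeR adjusted p = 0.405). Without Co.vec TGF-β replicate 3, the library with the lowest PLAU of its group, the difference was -0.32 and passed (edgeR adjusted p = 0.0123). The differences were -0.19 (-0.69 to 0.32) for PLAT, 0.04 (-0.16 to 0.25) for PLAUR, 0.00 (-0.13 to 0.13) for SERPINE2 and -0.12 (-0.33 to 0.09) for SERPINB8, with edgeR adjusted p of 0.937, 0.976, 0.998 and 0.878.

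In every group PLAU was nearly the whole of the transcripts of the 2 activators per length. SERPINE2 was most of those of the 3 serpin members, a share that leaves out all other serpins. PLAU made up 98.4% ± 0.0784 of the activator transcripts per length in LETS1 TGF-β cells, 98.3% ± 0.256 in LETS1 buffer cells, 98.2% ± 0.434 in Co.vec TGF-β cells and 98.0% ± 0.465 in Co.vec buffer cells (SD, n = 3). The mean differences were 0.253 percentage points for LETS1 against Co.vec (exact stratified permutation p = 0.225) and 0.181 points for TGF-β against buffer (exact permutation p = 0.355). Over left-out libraries the TGF-β difference ran from 0.0555 points without Co.vec TGF-β replicate 2 to 0.299 points without Co.vec buffer replicate 3, with exact permutation p of 0.765 and 0.145. SERPINE2 made up 89.7% ± 0.259 of the transcripts of the 3 serpins per length in LETS1 TGF-β cells, 90.3% ± 0.253 in LETS1 buffer cells, 89.7% ± 0.836 in Co.vec TGF-β cells and 91.1% ± 0.235 in Co.vec buffer cells. Its share was lower with TGF-β by a mean difference of -0.995 points (exact permutation p = 0.005, the smallest that the 400 arrangements allow, and 0.02 after Benjamini-Hochberg adjustment over the 4 tests), with SERPINB8 taking nearly all of the rest. For LETS1 against Co.vec the difference was -0.445 points (exact permutation p = 0.145). With 1 library left out, 2 of these p-values crossed the threshold unadjusted: the PLAU share for LETS1 had 0.378 points and an exact permutation p of 0.045 without Co.vec TGF-β replicate 2, and the SERPINE2 share for LETS1 had -0.641 points and an exact permutation p of 0.02 without Co.vec TGF-β replicate 3.

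Around the 6 members, 83 genes of the wider system were followed in 5 lists, of which 60 passed the filter. With TGF-β, 25 rose and 9 fell in LETS1 cells (56.7% called) and 25 rose and 7 fell in Co.vec cells (53.3%), with median log2 fold changes of 0.12 and 0.13. With LETS1, 16 rose and 10 fell in buffer (43.3%) and 18 rose and 11 fell under TGF-β (48.3%), with medians of 0.07 and 0.05. Over all genes tested, the same contrasts called 38.7% with TGF-β in LETS1 cells, 39.7% with TGF-β in Co.vec cells, 15.1% with LETS1 in buffer and 14.1% with LETS1 under TGF-β, with medians of -0.02, -0.02, 0.01 and 0.00. These are also the background for the counts of each list that follow, and nothing particular to a list is read from its counts. The interaction called 0 of the 60 genes by edgeR, with 5 at an unadjusted p under 0.05, and 0 by DESeq2, beside 0.679% of all genes.

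Plasminogen itself (PLG), a liver product, averaged 0.0334 CPM in LETS1 TGF-β cells, 0.0489 in LETS1 buffer cells, 0.0167 in Co.vec TGF-β cells and 0.0165 in Co.vec buffer cells and did not pass the filter. Of the 6 tested genes among plasminogen, its surface receptors and cofactors, 3 rose and 0 fell with TGF-β in LETS1 cells, 2 rose and 0 fell in Co.vec cells, and with LETS1 1 rose and 2 fell in buffer and likewise under TGF-β. Only 1 fell in buffer without Co.vec buffer replicate 3 or LETS1 buffer replicate 1 or 2, and only 1 under TGF-β without Co.vec TGF-β replicate 1 or 2 or LETS1 TGF-β replicate 2 or 3. PLGRKT, a membrane receptor for plasminogen, averaged 24.8 ± 0.597 CPM in LETS1 buffer cells and 18.5 ± 0.722 CPM in Co.vec buffer cells (log2 fold change 0.43, SE 0.0695, edgeR adjusted p = 1.0e-05). THBD encodes thrombomodulin, the endothelial cofactor that turns thrombin towards protein C and the fibrinolysis inhibitor CPB2. It rose with TGF-β by 0.97 in LETS1 cells and by 1.08 in Co.vec cells on the log2 scale, yet was lower with LETS1, at 72.1 ± 2.25 CPM in LETS1 TGF-β cells and 124.9 ± 11.02 CPM in Co.vec TGF-β cells (log2 fold change -0.79, SE 0.0565, edgeR adjusted p = 1.09e-13). The annexin partner S100A10 rose by 0.15 on the log2 scale with TGF-β in both populations (edgeR adjusted p = 0.00621 in LETS1 cells and 0.00499 in Co.vec cells).

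All 18 clearance receptors and partners of PLAUR passed the filter. With TGF-β, 11 rose and 0 fell in LETS1 cells and 11 rose and 0 fell in Co.vec cells, with medians of 0.38 and 0.27 on the log2 scale. ITGA5 and ITGB3, integrin subunits of fibronectin and vitronectin receptors that pair with PLAUR at the surface, rose by 1.16 and 1.19 in LETS1 cells and by 1.12 and 1.39 in Co.vec cells. MRC2, which binds collagen and assembles with urokinase and its receptor, rose by 0.89 in LETS1 cells and by 0.94 in Co.vec cells, and EGFR, a growth factor receptor that PLAUR signals through, rose by 0.92 in LETS1 cells and by 0.91 in Co.vec cells. With LETS1, 6 rose and 5 fell in buffer (3 fell without Co.vec buffer replicate 2 or 3 or LETS1 buffer replicate 1 or 3), and 4 rose and 3 fell under TGF-β. ITGB3 averaged 5.53 ± 1.06 CPM in LETS1 buffer cells and 2.697 ± 0.528 CPM in Co.vec buffer cells (log2 fold change 1.03, SE 0.164, edgeR adjusted p = 8.74e-06), and ITGA5 was higher by 0.38 in buffer and 0.42 under TGF-β. SORL1, a sorting receptor that takes up activator and inhibitor complexes, was lower, with log2 fold changes of -0.57 in buffer and -0.60 under TGF-β, and ITGB5 had -0.26 in buffer and -0.15 under TGF-β. FPR1, a chemotactic receptor linked to PLAUR fragments, averaged 1.27 CPM in LETS1 TGF-β cells and 0.0506 in Co.vec TGF-β cells, and 1.27 in LETS1 buffer cells and 0.0996 in Co.vec buffer cells (edgeR adjusted p = 2.22e-08 under TGF-β and 7.87e-08 in buffer), with too few Co.vec fragments for a firm fold.

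Of 23 other proteases that activate or are activated by the system, 16 passed the filter. With TGF-β 8 rose and 3 fell in LETS1 cells, and 8 rose and 2 fell in Co.vec cells. F3, the tissue factor that starts clotting, rose most among the better expressed ones, to 15.9 CPM in LETS1 TGF-β cells against 3.69 CPM in LETS1 buffer cells (log2 fold change 2.11) and to 21.4 CPM in Co.vec TGF-β cells against 4.56 CPM in Co.vec buffer cells (2.23). MMP2, a gelatinase, rose by 1.31 in LETS1 cells and 1.34 in Co.vec cells. MMP3, a stromelysin that plasmin activates, rose to 1.46 CPM in LETS1 TGF-β cells against 0.0815 CPM in LETS1 buffer cells (edgeR adjusted p = 8.54e-09) and to 0.596 CPM in Co.vec TGF-β cells against 0.0167 CPM in Co.vec buffer cells (edgeR adjusted p = 9.23e-06), with too few buffer fragments for a firm fold. HGF, the growth factor that urokinase can activate, fell by 1.26 in LETS1 cells and by 2.21 in Co.vec cells on the log2 scale. Over left-out libraries the Co.vec value ran from -2.97 without Co.vec TGF-β replicate 2 to -1.87. HGF averaged 0.222 CPM in Co.vec TGF-β cells against 1.04 CPM in Co.vec buffer cells, with too few fragments for a firm fold. With LETS1, 4 rose and 0 fell in buffer (2 rose without LETS1 buffer replicate 2) and 6 rose and 3 fell under TGF-β. HGF had the largest called rise in buffer (log2 fold change 1.19, edgeR adjusted p = 0.000183). It averaged 2.40 CPM in LETS1 buffer cells and 1.04 CPM in Co.vec buffer cells. PRSS23, a secreted serine protease, was higher by 0.35 in buffer (edgeR adjusted p = 6.2e-09) and by 0.26 under TGF-β (edgeR adjusted p = 5.01e-06), while F3 was lower under TGF-β, with a log2 fold change of -0.43 (edgeR adjusted p = 0.000288).

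Of 22 other inhibitors, 12 passed the filter, and they split between the directions. With TGF-β 3 rose and 4 fell in LETS1 cells (2 fell without LETS1 buffer replicate 1 or LETS1 TGF-β replicate 1), and 3 rose and 3 fell in Co.vec cells. TFPI2, a Kunitz inhibitor of plasmin in the matrix, rose to 327.0 CPM in LETS1 TGF-β cells against 186.8 CPM in LETS1 buffer cells and to 269.5 CPM in Co.vec TGF-β cells against 153.9 CPM in Co.vec buffer cells, a log2 fold change of 0.81 in each. Its relative TFPI, which blocks the tissue factor pathway, fell by 0.63 in LETS1 cells and by 0.43 in Co.vec cells on the log2 scale. The metalloproteinase inhibitor TIMP2 rose by 0.53 in LETS1 cells and 0.48 in Co.vec cells. TIMP3 rose to 2.65 CPM in LETS1 TGF-β cells against 0.310 CPM in LETS1 buffer cells (log2 fold change 3.07). In Co.vec cells it averaged 1.17 CPM with TGF-β against 0.0990 CPM in buffer (3.48), with too few buffer fragments for a firm fold. Over left-out libraries the Co.vec value ran from 2.94 to 4.40, the highest without Co.vec buffer replicate 2. With LETS1, 2 rose and 2 fell in buffer, and 4 rose and 2 fell under TGF-β. Only 2 rose under TGF-β without Co.vec TGF-β replicate 2 or 3 or LETS1 TGF-β replicate 1 or 3. TIMP3 had the largest called rise with LETS1 under TGF-β (log2 fold change 1.17, edgeR adjusted p = 0.000274). It averaged 2.65 CPM in LETS1 TGF-β cells and 1.17 CPM in Co.vec TGF-β cells. TFPI2 was higher with LETS1 by 0.28 on the log2 scale in buffer and under TGF-β, and SERPINF2, the main plasma inhibitor of plasmin, was lower, at 2.25 CPM in LETS1 buffer cells and 4.24 CPM in Co.vec buffer cells (log2 fold change -0.91) and at 2.52 CPM in LETS1 TGF-β cells and 4.88 CPM in Co.vec TGF-β cells (-0.95).

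**Figure D3:**
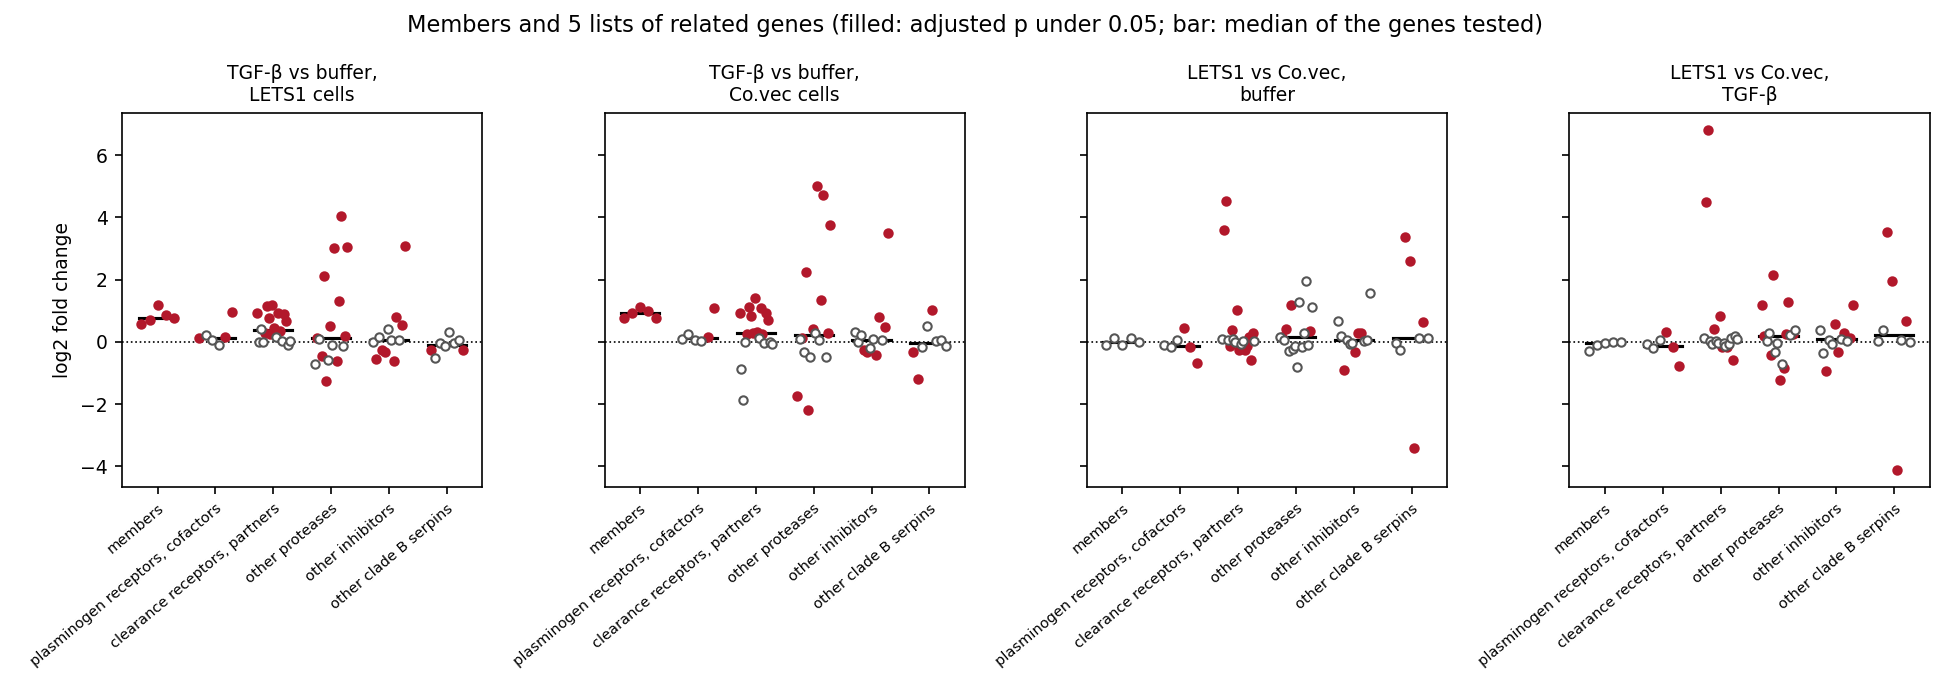
Log2 fold change of the 5 tested members and of the tested genes of the 5 lists in the 4 contrasts; each point is a gene, filled where the adjusted p is under 0.05, and bars are medians of the genes tested. Members lie above 0 in both TGF-β panels and near 0 in both LETS1 panels; the highest point under TGF-β in the last panel is FPR2, which had 0 fragments in Co.vec TGF-β libraries, so its fitted value is not a bound.

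The clade B serpins are largely intracellular proteins, not all of them protease inhibitors, and most lie in 1 cluster on chromosome 18 with SERPINB2 and SERPINB8. Of the 11 others, 8 passed the filter. With TGF-β 0 rose and 2 fell in LETS1 cells, and 1 rose and 2 fell in Co.vec cells (2 rose without Co.vec buffer replicate 1). In Co.vec cells the log2 fold change was 1.03 for SERPINB5 (edgeR adjusted p = 0.000162) and -1.18 for SERPINB11 (edgeR adjusted p = 0.00137). In LETS1 cells SERPINB5 (0.33) and SERPINB11 (-0.53) were not called with TGF-β. SERPINB1, an inhibitor of neutrophil proteases on chromosome 6, fell by 0.26 in LETS1 cells and by 0.34 in Co.vec cells on the log2 scale, beside the rises of SERPINB8 by 0.87 in LETS1 cells and 0.99 in Co.vec cells. With LETS1, 3 rose and 1 fell in buffer and in TGF-β alike, all 4 being genes of the chromosome 18 cluster. SERPINB11, which lies in the same cluster, was not called with LETS1. Its log2 fold changes were -0.28 in buffer (edgeR adjusted p = 0.544) and 0.38 under TGF-β (edgeR adjusted p = 0.540). SERPINB3 had log2 fold changes of 3.38 in buffer and 3.52 under TGF-β and SERPINB4 of 2.60 in buffer and 1.94 under TGF-β, but these 2 genes are near-identical copies whose fragments the counting could split, so each value is uncertain. SERPINB7 averaged 11.004 CPM in LETS1 buffer cells and 7.02 CPM in Co.vec buffer cells (log2 fold change 0.65, edgeR adjusted p = 5.24e-06). SERPINB5, maspin, went the other way, at 0.186 CPM in LETS1 TGF-β cells and 3.32 CPM in Co.vec TGF-β cells (log2 fold change -4.11, edgeR adjusted p = 3.38e-12). It was at 0.146 CPM in LETS1 buffer cells and 1.62 CPM in Co.vec buffer cells (-3.41). Over left-out libraries this buffer value ran from -4.88 without LETS1 buffer replicate 3 to -2.85, with too few LETS1 fragments for a firm fold. SERPINB7 lies 164.5 kb from SERPINB8, SERPINB11 243.5 kb, SERPINB3 308.0 kb, SERPINB4 325.6 kb and SERPINB5 464.8 kb. Neither SERPINB11 nor SERPINB8 itself was called with LETS1.

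**Figure D4:**
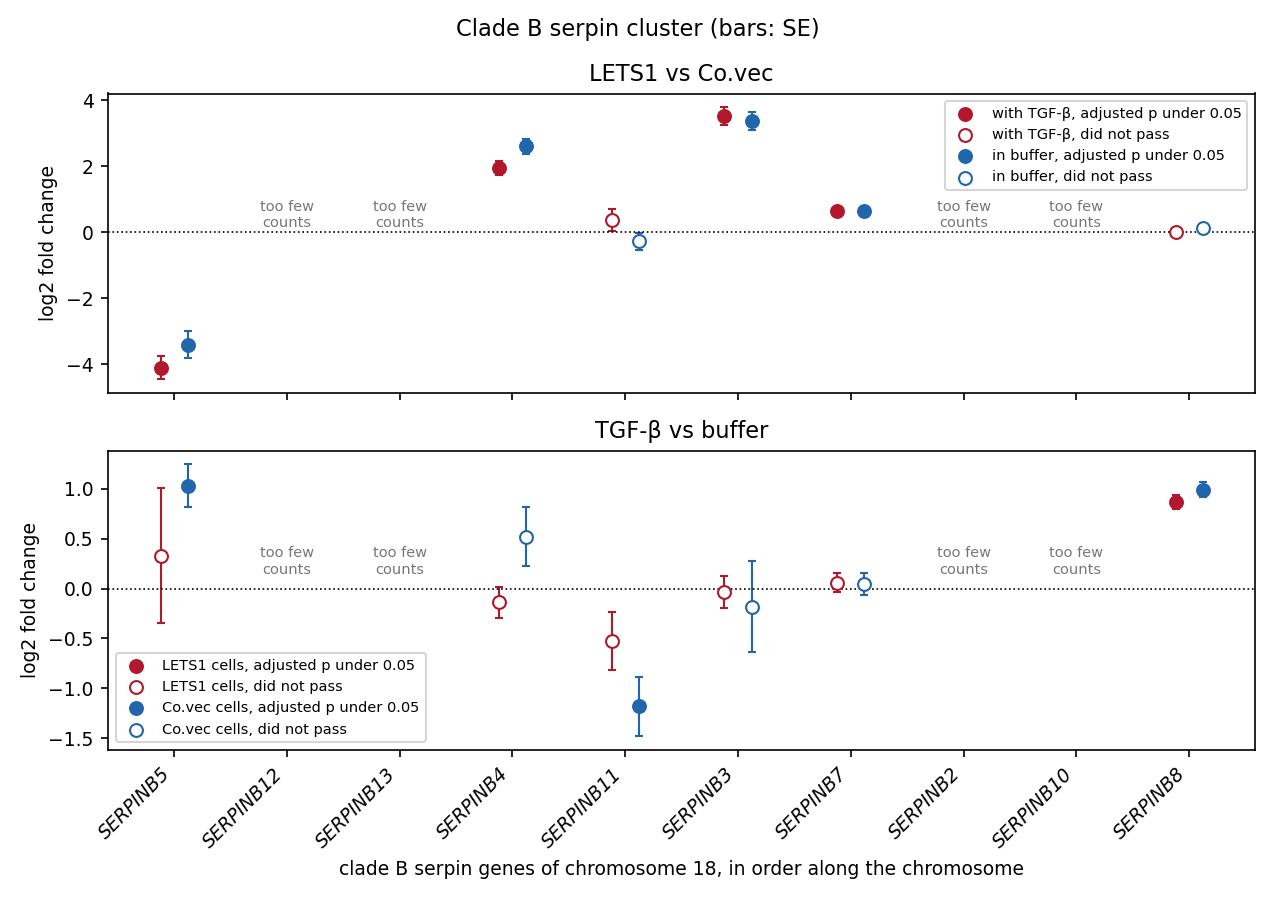
Log2 fold change (bars: SE) of the clade B serpin genes of chromosome 18 in chromosome order, for LETS1 against Co.vec (upper panel) and TGF-β against buffer (lower panel); filled points have an adjusted p under 0.05. With LETS1 the filled genes are SERPINB5, SERPINB4, SERPINB3 and SERPINB7, while SERPINB8 is filled in the TGF-β panel only. In the TGF-β panel SERPINB5 (higher) and SERPINB11 (lower) are also filled, for Co.vec cells only.

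The genes whose profiles over the 12 libraries lay closest to each member were found by the root mean square difference of centred log2 CPM among 10802 genes with a mean of at least 5 CPM. SERPINE2 had the closest neighbours: RNF19B (0.037), YIPF5 (0.0441) and OSMR (0.0512). PLAUR was closest to SDC4 (0.0605), which encodes a cell-surface heparan sulfate proteoglycan, then MYADM (0.0871) and MYEOV (0.0883). PLAU was closest to JAG1 (0.0681), a Notch ligand, then PPP1R3C (0.0766) and EPHA2 (0.0768), and SERPINB8 to VAV2 (0.0514), EGFR (0.0542) and UAP1 (0.0569). PLAT had no neighbour as near, with PROSER2 at 0.170, ADRA1B at 0.188 and ZNF780A at 0.199, and PLAT was also the tested member with the fewest fragments, 43 to 117 a library. The libraries are shared by every gene, so these distances describe likeness and nothing further.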

How the data were processed

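The 12 libraries of A549 RNA were read as the raw counts deposited by the authors, whole fragments per gene in 60676 gene rows and 5 rows of fragments given to no gene, which were left out. Per the submitters' processing notes, reads were trimmed with cutadapt 2.10, aligned with STAR 2.7.5a to GRCh38 and counted with HTSeq 0.12.4. Fragments matching several genes (10.1% to 10.9% of each library) and none (2.81% to 3.53%) stay out of gene counts, which lowers genes that overlap others. For the strand setting and the annotation release, nothing is given in the sources used here. A name table gave symbols and held 60357 of the identifiers, and GENCODE 29 gave exon lengths and positions.

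Genes were filtered with filterByExpr of edgeR 4.0.16 (R 4.3.3), scaled by TMM and fitted by the robust quasi-likelihood test with 1 mean per group over all 12 libraries, which left 16192 genes. The p-values of each of 5 contrasts were adjusted by Benjamini-Hochberg over all of them. The fit was also run on simulated data with few changed genes, unlike these data, and nothing is read from that run. Intervals are 95% intervals of the fit, and SE is the fitted difference divided by the root of F. CPM uses TMM-scaled library sizes and FPKM the union of a gene's exons. Shares of transcripts were tested by two-sided exact permutation within ligand or vector.

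Members, lists and tests were chosen with earlier results of these data known. Listed genes are named from the 3 largest rises and 3 largest falls per list and comparison with an adjusted p under 0.05 and at least 1 CPM in the higher group, and those whose call was lost without 1 library were left out of the text after seeing the values. Genes FPR2, COL1A1 and PLG, other single cell type markers, and the positions of the serpin cluster, were added for context. Replicate numbers were checked as pairs: residual correlations of same-numbered libraries ran from -0.06 to 0.05, with 0 of 18 over 0.1, and libraries were treated as unpaired. Alternatives were RLE size factors, no low-count filter, a replicate block, DESeq2 1.42.0, the 6 libraries compared alone, no length correction for shares, and leaving out each library. Another gene of the system is not reported here. Proteins are not shown.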

Additional observations from a re-analysis of the deposited data

How the results depend on the processing

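RLE size factors, no low-count filter, DESeq2, the 6 libraries compared alone and the replicate block left all 48 counts of members called and all 120 member fold changes with the same direction and side of the threshold. With the replicate block, 5 members were called with TGF-β in LETS1 cells, 5 in Co.vec cells and 0 in the other contrasts; over all genes it called 2297, 2158, 6251, 6136 and 106, against 2449, 2279, 6427, 6272 and 110 without it (LETS1 in buffer, LETS1 under TGF-β, TGF-β in Co.vec cells, TGF-β in LETS1 cells, interaction). Leaving out 1 library at a time gave 0 to 1 members lower with LETS1 under TGF-β and 0 to 1 lower in the interaction (PLAU without Co.vec TGF-β replicate 3). Across left-out libraries the log2 fold changes near 0 changed sign: with LETS1 in buffer PLAT ran from -0.251 to 0.0938 and SERPINE2 from -0.0584 to 0.0247; under TGF-β PLAUR ran from -0.138 to 0.0151, SERPINE2 from -0.0460 to 0.0212 and SERPINB8 from -0.0561 to 0.0391; in the interaction PLAUR ran from -0.0404 to 0.111 and SERPINE2 from -0.0350 to 0.0521. Over left-out libraries, the PLAU share for LETS1 ran from 0.139 to 0.378 points and the SERPINE2 share from -0.641 to -0.225 points. Among listed genes, 17 of 415 values under other settings and 48 of 996 under left-out libraries lost their call. DESeq2 called 3 other proteases higher with LETS1 under TGF-β, against 6, and 2 other inhibitors lower with TGF-β in LETS1 cells, against 4; the 6-library fit called 5 other proteases higher with TGF-β in Co.vec cells, against 8. The cause of these shifts was not tested. Depth limits PLAT, at 43 to 117 fragments a library, and SERPINB2, at 0 or 1.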
